A study of Mus musculus with 28 samples.

Results

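The 10 genes described here are BMP ligands and genes that respond to BMP signals: the ligands *Bmp2*, *Bmp4*, *Bmp5* and *Bmp7*, the response genes *Id1*, *Id2* and *Id3*, the inhibitory Smad genes *Smad6* and *Smad7*, and the homeobox gene *Msx2*. They were taken by name from the mm9 annotation, and all 10 were found among 22367 protein-coding genes. The cells were cultures of mesoderm precursors made from 1 mouse embryonic stem cell (ESC) line, *Brg1*f/f;*Actin-CreER*, in which both alleles of *Brg1* (*Smarca4*, the ATPase of BAF chromatin-remodeling complexes) can be deleted by a CreER expressed throughout the culture from an actin promoter. Embryoid bodies were grown for 2 days without serum and then for 40 h with VEGF, Activin A and BMP4, so that every culture, control or deleted, received a BMP ligand in the medium. At day 2 the cultures received 200 nM 4-hydroxytamoxifen (4-OHT) in tetrahydrofuran (THF), which deletes *Brg1*, or THF alone as control, and chromatin was taken at day 4.

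Chromatin immunoprecipitation followed by sequencing (ChIP-seq) gave 17 lists of enriched regions. H3K27ac, an acetylation of histone H3 found at active promoters and enhancers, was mapped in 2 control and 2 4-OHT samples. H3K27me3, the methylation of the same lysine that Polycomb repressive complex 2 (PRC2) places at silenced genes, was mapped in 3 and 3, and Suz12, a core subunit of PRC2, in 2 and 2. Brg1 itself was mapped with an antibody against FLAG in 3 samples, which the labels place in the same line with normal *Brg1*, whereas the methods describe a Brg1-FLAG line. A list holds the position of each region and no signal, so the value used for a gene is the number of base pairs (bp) covered by regions of a list within 5 kb of its transcriptional start site (TSS), unless a wider window of 50 kb is named. Read depth is unknown, and the lists differ in size: the FLAG lists hold 8021, 8257 and 192 regions, so the third contributes little. Mean covered length per H3K27me3 list was 9.81 Mb in control and 7.12 Mb after 4-OHT, a ratio of 0.726 or -0.46 on the log2 scale. The ratios were 0.93 for H3K27ac and 1.08 for Suz12. Both 4-OHT lists of Suz12 held more regions, 3654 and 4016 against 2951 and 2913 in control. Control H3K27ac covered 5 of 6 mesoderm markers in both lists (*T*, *Mixl1*, *Eomes*, *Mesp1* and *Pdgfra*, with *Kdr* at 0). It covered the pluripotency genes *Pou5f1* and *Nanog* in both lists, but not *Zfp42*, at 375 and 0 bp. None of the neurectoderm markers *Pax6* and *Neurog2* or the endoderm markers *Sox17* and *Foxa2* was covered. The neurectoderm marker *Sox1* had also been chosen, but the annotation held no protein-coding gene of that name. The lists cannot show the deletion itself: *Smarca4* kept H3K27ac, at 2875 and 2450 bp in control against 3250 and 3375 bp with 4-OHT. After 4-OHT the H3K27ac values of *T*, *Mesp1* and *Nanog* were lower without overlap and no marker was higher. Of all genes with any H3K27ac region, 12.6% were lower and 39.8% higher. The H3K27ac values of *Zfp42* overlapped, at 375 and 0 bp in control against 1375 and 325 bp with 4-OHT. Suz12 was higher without overlap at *T*, *Mixl1*, *Kdr* and *Pdgfra*, 4 of the 5 mesoderm markers with any Suz12 region. At *T* and *Mixl1* neither control list held it. Suz12 was lower at *Neurog2* and *Foxa2*. Of all genes with any Suz12 region, 32.1% were higher and 5.76% lower. The part of such shifts in the results was not tested. In cultures of mixed cells, fewer cells that carry a mark and less of it in each cell cannot be told apart.

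BMP ligands are secreted proteins of the TGF-beta family. They bind pairs of type I and type II receptor kinases, which phosphorylate the receptor-regulated Smads (Smad1, Smad5 and Smad9), and these enter the nucleus with Smad4 and switch on targets such as the *Id* genes. The products of *Smad6* and *Smad7* feed back to limit the same signal. In the early embryo BMP signals from the extra-embryonic ectoderm and the primitive streak help to specify mesoderm, and the Id proteins hold back basic helix-loop-helix factors that drive differentiation.

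The 10 genes carried different marks in the control cultures (the plot of covered bp by list), and neither the ligands nor the response genes were alike as a group. *Bmp2* and *Bmp4* were covered by H3K27me3 and Suz12 in every control list and had no H3K27ac near the TSS. *Bmp7*, the 3 *Id* genes, *Smad6* and *Smad7* had 3325 bp or more of H3K27ac in both control lists. *Id2* and *Msx2* carried H3K27ac and H3K27me3 together, and *Bmp5* was almost without regions. After 4-OHT most of these values overlapped those of the control cultures, and *Id2* was the member that did not overlap for any of the 3 marks. Near *Id2*, H3K27me3 fell to 0.0505 of the control mean, H3K27ac was 1.43 times as wide, and a Suz12 region was listed that no control list held.

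A difference is called here when the values of the control and the 4-OHT lists do not overlap. The exact two-sided permutation test over samples treats the lists as unpaired. With 2 lists against 2 it cannot give a p below 0.333, and with 3 against 3 none below 0.1. No difference of a single gene can therefore pass 0.05. For H3K27ac, 2 of the 9 members with any region were lower after 4-OHT without overlap (*Id1* and *Msx2*) and 2 were higher (*Id2* and *Smad6*). Over all genes with any H3K27ac region the shares were 12.6% lower and 39.8% higher. For H3K27me3, 1 of 8 members was lower (*Id2*) and 0 were higher, beside 12% and 0.19% of all genes. For Suz12, 0 of 5 members were lower and 1 was higher (*Id2*), beside 5.76% and 32.1%. With each list scaled to its total length, 0 members were lower in H3K27ac and 4 were higher (*Id2*, *Id3*, *Smad6* and *Smad7*). The median difference between 4-OHT and control means was 125 bp for the members with H3K27ac and 112 bp for all genes with it, -25 and -275 bp for H3K27me3, and 112 bp in both for Suz12. Leaving out the first control list of H3K27ac raised the members called lower to 4, and leaving out the second control list or the first 4-OHT list raised those called higher to 4. Leaving out the first 4-OHT list of Suz12 raised the members called higher from 1 to 5, leaving out the second control list raised them to 2, and leaving out the second 4-OHT list raised those called lower from 0 to 2. Leaving out the first control list of H3K27me3 raised the members called lower from 1 to 2.

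**Figure D1:**
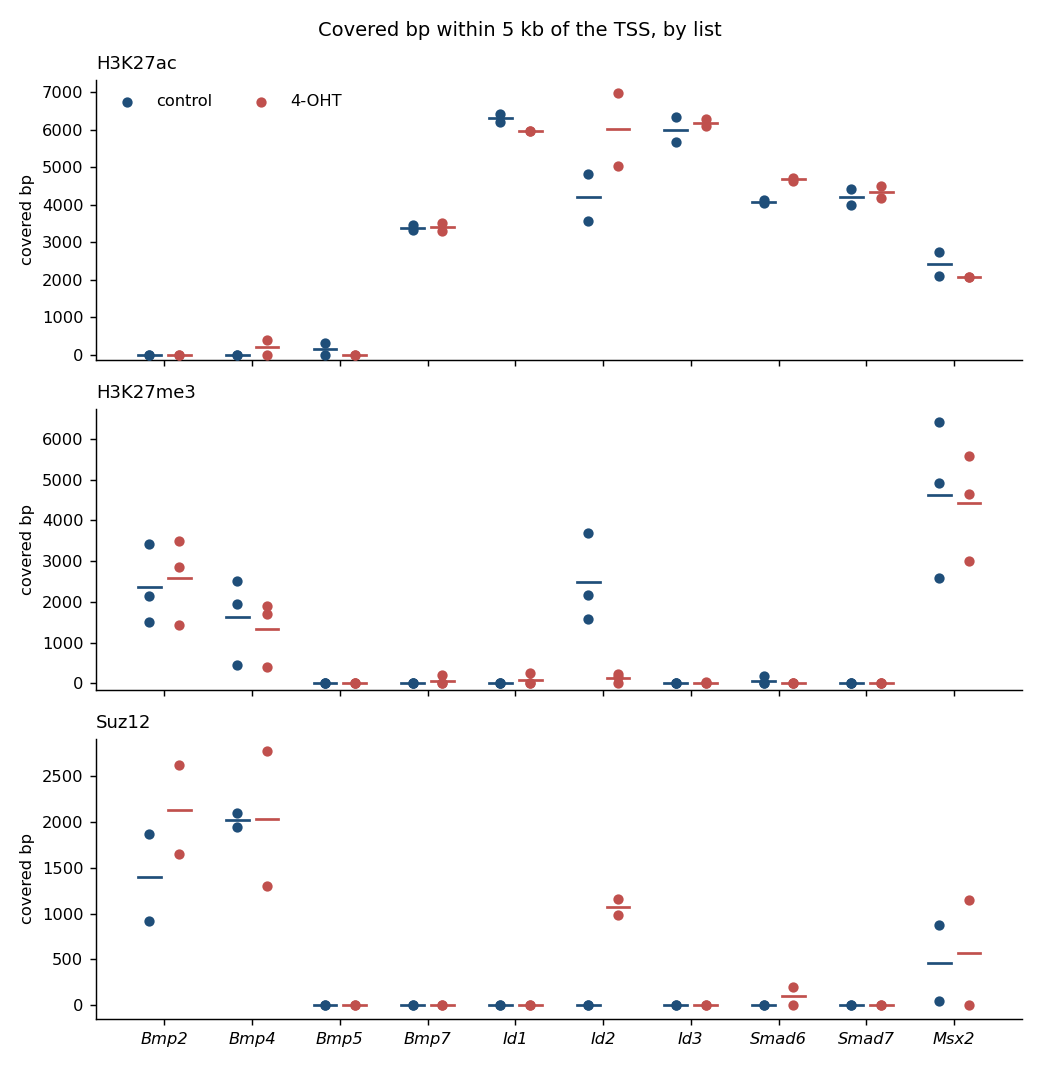
Covered bp within 5 kb of the TSS (y axis) of the 10 genes (x axis) in each list, for H3K27ac, H3K27me3 and Suz12; points are lists (control blue, 4-OHT red) and bars are means. Values near *Id2* separate in all 3 panels, with H3K27me3 at 1575 to 3682 bp in control and 0 to 225 bp after 4-OHT, whereas *Bmp2*, *Bmp4* and *Bmp7* overlap in each.

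*Bmp2* (chr2:133377895-133388621, plus strand, mm9) encodes a ligand needed for heart and amnion formation. Its H3K27me3 covered 1500, 2145 and 3425 bp in the control lists and 1425, 3500 and 2850 bp after 4-OHT (exact permutation p = 0.9). Its Suz12 covered 925 and 1875 bp in control against 1650 and 2625 bp with 4-OHT (exact permutation p = 0.667). The conditions overlapped for both marks. Most of this coverage lay in the first part of the gene, in a merged H3K27me3 region of 2100 bp centred 1.41 kb downstream of the TSS and a Suz12 region of 1875 bp at 0.744 kb. In every control list both marks were present, but the bases shared by all 3 H3K27me3 lists (875 bp) and those shared by both Suz12 lists (875 bp) had 0 bp in common. Single lists share more. H3K27me3 of the third control list covered all 2100 bp of its region. Suz12 of the second control list covered 1425 bp of the 1875 bp region that overlaps it. H3K27ac was absent within 5 kb in all 4 lists. Within 50 kb, H3K27ac covered 175 and 725 bp in control and 0 bp in both 4-OHT lists. The control bases came from intergenic regions at 34.1 and 34.7 kb, each at most 2.5 kb from an annotated TSS. The one at 34.7 kb was in both control lists, at 175 and 375 bp, and in neither 4-OHT list. In 1 FLAG list, 25 bp lay inside the same region.

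*Bmp4* (chr14:47003195-47010344, minus strand) encodes the ligand that was also added to the medium. H3K27me3 covered 450, 1950 and 2500 bp in control against 400, 1700 and 1900 bp with 4-OHT (mean 1633 ± 1061 and 1333 ± 814 bp, SD, n = 3 each, exact permutation p = 0.5). These groups overlapped, but each 4-OHT list was lower than the control list of the same number. For H3K27me3 the replicate numbers pair the samples as judged from the lists, and with the replicate block 2 members, *Bmp4* and *Id2*, of the 8 with any H3K27me3 were lower in all 3 pairs, beside 44.1% of all genes. Scaled to list totals, the difference at *Bmp4* turned from -300 to 120 bp. The ratio of means at *Bmp4*, 0.816, was nearer to 1 than the 0.726 of the lists as a whole. Suz12 covered 1950 and 2100 bp in control against 1300 and 2775 bp with 4-OHT, so the 4-OHT lists stood on either side of the control lists. H3K27me3 also covered a distal region of 2000 bp centred 7.21 kb upstream, in all 6 lists. H3K27ac was at 0 within 5 kb in 3 lists and at 400 bp in the second 4-OHT list. No FLAG list held a region within 50 kb of this TSS.

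*Bmp5* (chr9:75623171-75748117, plus strand), a ligand of the Bmp5/Bmp7 subgroup, had no H3K27me3 and no Suz12 within 50 kb in any list. Its H3K27ac was 300 bp in the second control list and 0 bp in the other 3. A FLAG region of 125 bp in 1 list overlapped the same position.

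*Bmp7* (chr2:172693513-172765822, minus strand) encodes a ligand that can pair with Bmp2 or Bmp4, and it was the one ligand gene of the 4 with H3K27ac in both control lists. H3K27ac covered 3450 and 3325 bp in control against 3500 and 3300 bp with 4-OHT, a difference of means of 12.5 bp that lay within the spread of either condition. Inside this region, in an intron 2.2 kb downstream of the TSS, lay the widest Brg1-bound region of the members. It spans 1100 bp, with 525 bp in the first FLAG list, 1000 bp in the second and 0 bp in the third. H3K27ac covered all 1100 bp of it in both control lists and 1100 and 1075 bp after 4-OHT. Within 50 kb of *Bmp7*, H3K27ac covered 4625 and 4575 bp in the control lists and 3725 and 3700 bp after 4-OHT, lower without overlap. That difference of 888 bp lay in a region at the start of the neighbouring gene *Spo11*, a meiotic recombination enzyme, 37.3 kb upstream, which covered 1175 and 1250 bp in control against 225 and 400 bp with 4-OHT.

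The *Id* genes encode short helix-loop-helix proteins without a DNA-binding region. *Id1* (chr2:152561987-152563146, plus strand) had the widest H3K27ac region of all members, 6400 bp when merged over the lists, which covers the whole gene. Within 5 kb H3K27ac covered 6200 and 6412 bp in control against 5975 and 5950 bp with 4-OHT (mean 6306 ± 150 and 5963 ± 17.7 bp, SD, n = 2 each, exact permutation p = 0.333). The control lists were both wider, by 344 bp in the mean, but scaled to the total length of each list the difference turned to 106 bp higher after 4-OHT. No control list held H3K27me3 there and no list held Suz12, and the third 4-OHT list had 250 bp of H3K27me3. A Brg1-bound region of 600 bp lay 0.586 kb upstream of the TSS, with 600 bp in the first FLAG list and 75 bp in the second. Its 75 bases listed in both are printed because they are the part of the *Id1* promoter region with repeated FLAG enrichment (chr2:152561101-152561175, mm9, plus strand).
Id1 -0.849 kb: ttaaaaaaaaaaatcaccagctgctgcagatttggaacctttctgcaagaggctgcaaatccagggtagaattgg
All of this Brg1-bound region stayed within H3K27ac in the 4 lists.

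Farther from *Id1* the acetylated regions moved in both directions. A region in the nearby gene *H13*, 29.2 kb upstream, held 2 Brg1-bound regions, one of them listed in all 3 FLAG lists. H3K27ac covered 3100 and 3325 bp of it in control and 2850 and 2700 bp after 4-OHT. At the gene *Cox4i2*, 28.2 kb downstream, H3K27ac was 1125 and 2200 bp in control against 150 and 750 bp with 4-OHT, and no Brg1-bound region lay there. A narrow intergenic region at 30.1 kb was listed in both control lists, at 150 and 50 bp, and in neither 4-OHT list. At -39.8 kb, in *H13*, H3K27ac was higher after 4-OHT, at 1475 and 1500 bp against 1275 and 1425 bp. The 50 kb total therefore overlapped between conditions, at 14414 and 16289 bp in control against 16039 and 14464 bp with 4-OHT.

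*Id2* (chr12:25778666-25780957, minus strand) was the one member with H3K27me3 in all control lists and Suz12 in none. In control it carried both H3K27ac, at 4825 and 3575 bp, and H3K27me3, at 2175, 3682 and 1575 bp. Suz12 was at 0 bp in both control lists. After 4-OHT H3K27me3 covered 225, 150 and 0 bp (mean 2477 ± 1086 bp in control and 125 ± 115 bp after 4-OHT, SD, n = 3 each, exact permutation p = 0.1). That p is the smallest the test can give with 3 lists against 3 taken as unpaired. All 3 control lists were above all 3 4-OHT lists, and the same held under every alternative tried, with a mean difference in bp between -1675 (in a window of 2.5 kb) and -2803.5 (without the third control list). H3K27ac rose to 6982 and 5032 bp, so that both 4-OHT lists were wider than both control lists (exact permutation p = 0.333), though the numbers of regions overlapped. Suz12 covered 982 and 1157 bp after 4-OHT (exact permutation p = 0.333).

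Most of the bases that lost H3K27me3 lay in 3 merged regions (the map of regions around *Id2*). The first spans 1200 bp within the gene, 1.06 kb downstream of the TSS, and fell from 700, 1200 and 375 bp to 0, 150 and 0 bp. The second, 1.62 kb upstream, fell from 625, 1175 and 1150 bp to 150, 0 and 0 bp. The third, 2275 bp wide and 5.01 kb upstream, covered 925, 2150 and 50 bp in control and 0 bp in all 4-OHT lists. Over the gene body itself H3K27ac was 50 and 0 bp in control against 1400 and 125 bp with 4-OHT, in the same part of the gene. The widest H3K27ac region, 3300 bp centred 3.44 kb upstream, was also wider after 4-OHT, at 3050 and 2900 bp in control against 3300 and 3125 bp with 4-OHT. In control, the bases in all 5 lists of H3K27ac and H3K27me3 came to 75 bp. Single lists share more: the H3K27me3 region of the first control list from -4.494 to -3.994 kb lies inside the H3K27ac region of both control lists.

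The Suz12 region, 1300 bp wide and 4.49 kb upstream, was in neither control list and covered 1025 and 1300 bp after 4-OHT. It overlaps the upstream region that had no H3K27me3 left in any 4-OHT list, and within 5 kb all 982 bp of it that both 4-OHT lists shared were also in both 4-OHT lists of H3K27ac. Over the genome, 59 of 360 Suz12 regions found in both 4-OHT lists and neither control list overlapped H3K27ac of both 4-OHT lists (16.4%), as did 6.92% of the 1806 Suz12 regions in all 4 lists. The Suz12 call is absent when the window is narrowed to 2.5 kb, since the region lies outside it. The 25 bases printed next are those near *Id2* where the lost H3K27me3 and the added Suz12 meet in every list (chr12:25785001-25785025, mm9, plus strand). They were in H3K27me3 of every control list, in Suz12 and H3K27ac of every 4-OHT list, and already in both control lists of H3K27ac. Their extent is that of a region of the third control list, from -4.069 to -4.044 kb. The H3K27me3 regions there were wider in the first control list (-4.494 to -3.994 kb) and the second (-6.019 to -3.869 kb).
Id2 -4.06 kb: gccttagatgaggaaggcttggact
The pattern of *Id2* was described after its values had been seen. Of 793 genes with any region of all 3 marks, 14 (1.77%) had lower H3K27me3, higher H3K27ac and higher Suz12, each without overlap. Of 2649 genes with H3K27me3 in all 3 control lists, 128 (4.83%) had a 4-OHT mean at least 90% lower, and of 2290 genes with any Suz12, 265 (11.6%) had it in both 4-OHT lists and neither control list. No FLAG region near *Id2* was repeated: the first FLAG list held 550 bp and the second 400 bp within 5 kb, at positions that did not overlap, so that by the rule of 2 lists *Id2* was not Brg1-bound.

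**Figure D2:**
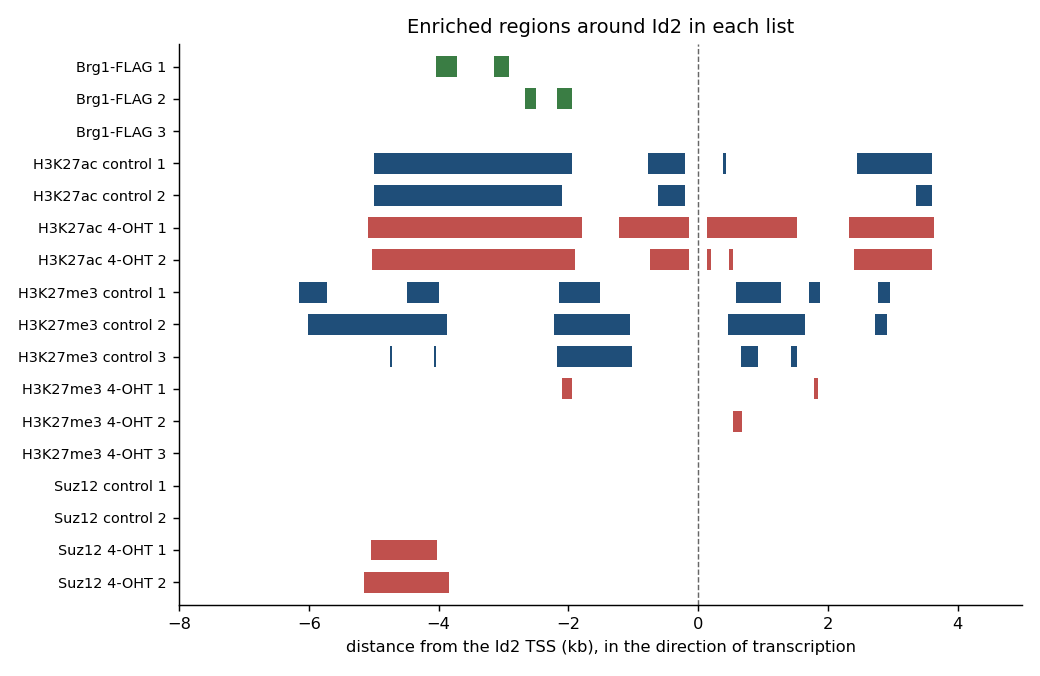
Enriched regions around *Id2* in each of the 17 lists (rows) by distance from the TSS in kb (x axis, dashed line at the TSS); bars are regions, green for FLAG, blue for control and red for 4-OHT. The 3 control rows of H3K27me3 hold regions on both sides of the TSS and the 4-OHT rows hold at most 225 bp, while Suz12 appears only in the 4-OHT rows, 4.49 kb upstream.

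*Id3* (chr4:135699412-135701670, plus strand) was acetylated at 5662 and 6325 bp in control against 6287 and 6087 bp with 4-OHT, and these values overlapped. It had no Suz12, and its only H3K27me3 was 25 bp in 1 4-OHT list. It had 3 of the 11 Brg1-bound regions found within 50 kb of the 10 genes, as many as *Id1* and *Smad6*. All 3 lay upstream, at -8.57, -7.82 and -2.64 kb, and inside control H3K27ac regions. The one at -2.64 kb, 500 bp wide, was listed in all 3 FLAG lists with 250, 425 and 125 bp, and its H3K27ac region spanned 1725 and 1875 bp in control against 1700 and 1550 bp with 4-OHT.

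The acetylated region 8 kb upstream of *Id3* narrowed after 4-OHT (the map of regions around *Id3*). This region lies at most 2.5 kb from an annotated TSS and was not counted as distal. It covered 2375 and 2825 bp in the control lists and 1100 and 1150 bp in the 4-OHT lists (exact permutation p = 0.333), and the part no longer listed was the side nearer the gene. That part holds most of the Brg1-bound region at -7.82 kb: all 375 bp of it were covered by H3K27ac in both control lists and 75 bp in both 4-OHT lists. The Brg1-bound region at -8.57 kb stayed covered over all of its 175 bp in all 4 lists. Its bases, and those of the -7.82 kb and -2.64 kb regions that at least 2 FLAG lists share, are printed because they are the Brg1-bound sequences beside the narrowed region. Capitals mark GGCGCC, the palindromic site that BMP-activated Smads are known to bind, searched on both strands. Positions are on mm9, plus strand, at chr4:135690751-135690925, chr4:135691451-135691700 and chr4:135696551-135696775.
Id3 -8.57 kb: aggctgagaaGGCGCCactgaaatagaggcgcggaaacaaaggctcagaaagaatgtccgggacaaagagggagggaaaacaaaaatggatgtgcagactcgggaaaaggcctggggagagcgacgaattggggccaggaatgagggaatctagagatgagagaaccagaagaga
Id3 -7.84 kb: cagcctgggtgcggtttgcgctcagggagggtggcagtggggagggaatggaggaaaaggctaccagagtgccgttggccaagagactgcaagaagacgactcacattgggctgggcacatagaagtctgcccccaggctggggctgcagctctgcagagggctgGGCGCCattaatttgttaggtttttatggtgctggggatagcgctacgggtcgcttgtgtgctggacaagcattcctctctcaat
Id3 -2.75 kb: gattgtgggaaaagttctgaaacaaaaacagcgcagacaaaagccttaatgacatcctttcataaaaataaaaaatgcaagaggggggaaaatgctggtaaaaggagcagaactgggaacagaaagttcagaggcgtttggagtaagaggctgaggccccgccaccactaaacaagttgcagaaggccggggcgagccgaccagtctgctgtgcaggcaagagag
The letters GGCGCC occur once in each of the first pair, at chr4:135690761-135690766 and chr4:135691616-135691621, and not in the -2.75 kb sequence. The site at -8.65 kb was inside H3K27ac in both control and both 4-OHT lists. The site at -7.79 kb was inside H3K27ac in both control lists and in neither 4-OHT list. Of windows of 300 bp centred on all 2390 Brg1-bound regions of the genome, 2.72% held GGCGCC, and of the 11 near the members 2 did, both near *Id3*. The Smad palindrome GTCTAGAC, searched on both strands, occurs in none of the 11 windows and in 0.335% of all of them. The T-box letters AGGTGTGA occur in none of the 11 and in 1.76% of all. The GATA letters AGATAAG occur in none of the 11 and in 5.77% of all. A match of letters is not evidence of binding. Downstream of *Id3*, a region at 3.96 kb was wider after 4-OHT, at 1975 and 2300 bp against 1475 and 1500 bp, and these bases enter the sum within 5 kb.

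**Figure D3:**
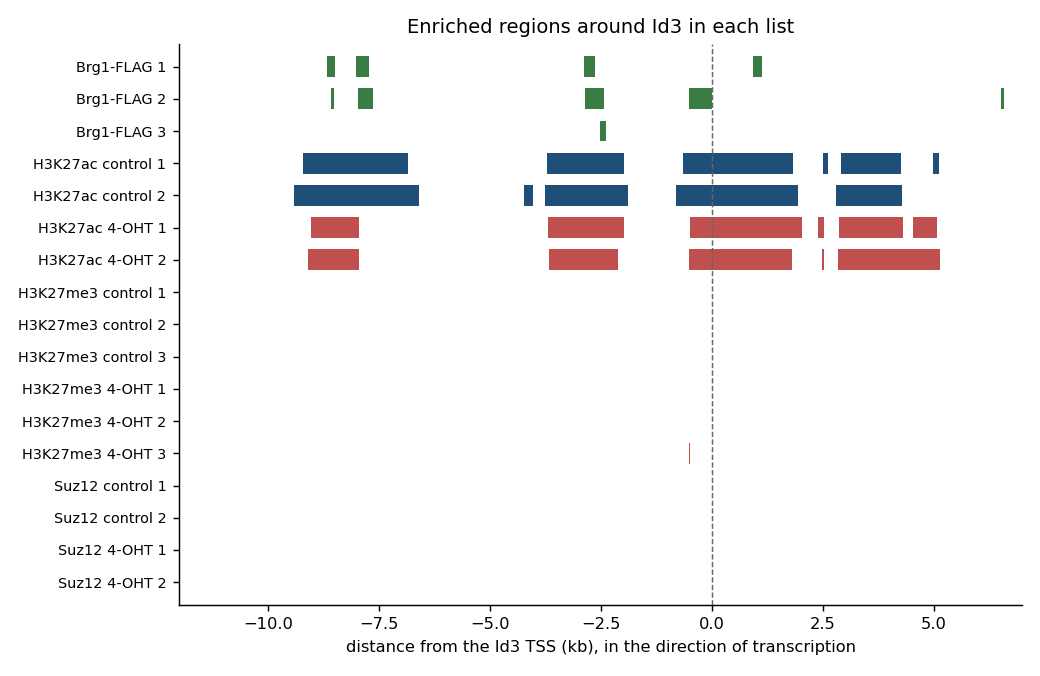
Enriched regions around *Id3* in each list (rows) by distance from the TSS in kb (x axis, dashed line at the TSS); bars are regions, green for FLAG, blue for control and red for 4-OHT. The H3K27ac region 8 kb upstream spans 2375 and 2825 bp in the control rows and 1100 and 1150 bp in the 4-OHT rows, with a Brg1-bound region in the part that is no longer listed.

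*Smad6* (chr9:63800953-63869866, minus strand) encodes an inhibitory Smad that acts mainly on BMP receptors. H3K27ac within 5 kb covered 4110 and 4035 bp in control against 4635 and 4710 bp with 4-OHT (mean 4073 ± 53 and 4673 ± 53 bp, SD, n = 2 each, exact permutation p = 0.333). The lists of one condition were close to each other and the conditions were apart by 600 bp. Most of this came from the promoter region itself, at 1700 and 1775 bp in control against 2100 and 2125 bp with 4-OHT, and from a narrow region 1.28 kb upstream that only the 4-OHT lists held, at 175 and 150 bp. Within 2.5 kb the difference was 462 bp. A region at 4.45 kb, cut by the window, also entered. As a whole it overlapped, at 3050 and 3600 bp in control against 3100 and 3150 bp with 4-OHT. The difference within 5 kb was not called when windows around all annotated TSSs of the gene were joined, or when whole regions centred in the window were counted. Over the gene body the direction was the other way, at 6566 and 8566 bp in control against 5591 and 6066 bp with 4-OHT. A distal region 44.9 kb upstream was in both control lists, at 250 and 650 bp, and in neither 4-OHT list. Another region, 23.2 kb upstream and at most 2.5 kb from an annotated TSS, covered 1575 and 2250 bp in control. It covered 1275 bp in both 4-OHT lists.

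*Smad6* had 3 Brg1-bound regions, at 4.57 kb in an intron, at 0.44 kb over exonic sequence next to the TSS, and at -28.4 kb. The last was listed in all 3 FLAG lists with 200, 200 and 150 bp, and its H3K27ac region spanned 2400 and 2625 bp in control against 2550 and 2400 bp with 4-OHT. H3K27ac covered all bases of these 3 regions in all 4 lists. The intronic and the upstream sequence are printed as the Brg1-bound sites of this gene that kept H3K27ac (chr9:63865201-63865400 and chr9:63898101-63898375, mm9, plus strand), and neither holds the letters searched.
Smad6 4.57 kb: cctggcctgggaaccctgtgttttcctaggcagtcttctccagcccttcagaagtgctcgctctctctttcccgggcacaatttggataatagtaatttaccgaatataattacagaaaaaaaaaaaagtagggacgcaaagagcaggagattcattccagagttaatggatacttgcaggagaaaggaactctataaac
Smad6 -28.4 kb: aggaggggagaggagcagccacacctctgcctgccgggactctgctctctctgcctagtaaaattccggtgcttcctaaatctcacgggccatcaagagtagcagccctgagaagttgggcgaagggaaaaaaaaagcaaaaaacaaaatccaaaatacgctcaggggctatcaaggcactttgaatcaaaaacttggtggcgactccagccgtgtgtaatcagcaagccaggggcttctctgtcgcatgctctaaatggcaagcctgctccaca
Polycomb marks were sparse here, with 175 bp of H3K27me3 in 1 control list and 200 bp of Suz12 in 1 4-OHT list.

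*Smad7*, on chromosome 18, encodes the inhibitory Smad that acts on both BMP and TGF-beta receptors. H3K27ac within 5 kb covered 4000 and 4425 bp in control against 4175 and 4500 bp with 4-OHT, and the conditions overlapped. No list held H3K27me3 or Suz12 within 50 kb. The promoter region alone was slightly wider after 4-OHT, at 3675 and 3825 bp against 3575 and 3525 bp, while 2 narrow regions inside the gene were in both control lists and in neither 4-OHT list. They lay 3.46 kb downstream of the TSS, at 125 and 25 bp, and 5.43 kb downstream, at 200 and 450 bp. In the other direction, regions 12.8 kb downstream and 48.2 kb upstream were wider after 4-OHT, at 400 and 975 bp against 100 and 375 bp and at 975 and 925 bp against 525 and 375 bp. FLAG regions near *Smad7* were in 1 list each and none was repeated.

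*Msx2* (chr13:53562250-53568443, minus strand) encodes a homeobox factor of limb, heart and neural crest development that BMP signals induce. It had the most H3K27me3 of the members in control, and more H3K27ac than *Bmp2* or *Bmp4*. H3K27me3 within 5 kb covered 2583, 4908 and 6408 bp in control against 3000, 4658 and 5583 bp with 4-OHT (exact permutation p = 0.9). The widest H3K27me3 region of the members, 10300 bp when merged, reaches over most of the gene and covered 3925, 8500 and 9950 bp in control against 2050, 7750 and 8775 bp with 4-OHT. Within 50 kb H3K27me3 was 8425, 13350 and 13975 bp in control against 6100, 10900 and 12175 bp with 4-OHT, lower in every same-numbered pair though the groups overlap. With the replicate block, 3 members were lower in this window, *Bmp4*, *Id2* and *Msx2*, against 1 without it, beside 48.8% of all genes with the block. Scaled to list totals, the differences in this window turned from -667 to 363 bp at *Bmp4* and from -2191.7 to 1371.3 bp at *Msx2*. The ratio of means at *Msx2*, 0.816, was again nearer to 1 than that of the lists as a whole. Suz12 within 5 kb was 50 and 875 bp in control against 0 and 1150 bp with 4-OHT, and a Suz12 region of 4550 bp downstream of the gene covered 2450 and 4125 bp in control against 2325 and 4350 bp with 4-OHT.

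H3K27ac near *Msx2* covered 2100 and 2725 bp in control and 2075 bp in both 4-OHT lists, a difference without overlap that was lost when each list was scaled to its total length. Most of it was a region 3.22 kb upstream, at 1850 and 2375 bp in control against 1750 and 1725 bp with 4-OHT. The bases listed in every control replicate of H3K27ac (2100 bp) and of H3K27me3 (2558 bp) had 0 bp in common. This leaves out bases missing from any of these lists. A Brg1-bound region of 175 bp lay 10.8 kb from the TSS, past the end of the gene and outside H3K27ac in all lists, where single lists of H3K27me3 and Suz12 reached it. It is printed as the one Brg1-bound region of the 11 that was not in control H3K27ac (chr13:53557551-53557725, mm9, plus strand).
Msx2 10.8 kb: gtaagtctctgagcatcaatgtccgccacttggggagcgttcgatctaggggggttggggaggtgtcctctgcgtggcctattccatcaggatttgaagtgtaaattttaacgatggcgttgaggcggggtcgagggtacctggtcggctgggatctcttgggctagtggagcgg
None of the letters searched occurs in it.

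Taking the Brg1-bound regions of all members, 4 of 10 genes had one within 5 kb of the TSS (*Bmp7*, *Id1*, *Id3* and *Smad6*) and 5 within 50 kb (also *Msx2*). Over all 22367 genes the shares were 2.11% and 9.32%. All 4 had H3K27ac in both control lists, and H3K27me3 was in no control list within 5 kb at 3 of them and in 1 control list at *Smad6*. The count within 5 kb rested on the first 2 FLAG lists: it was 4 without the third list, 1 (*Id3*) without the first and 0 without the second, and with a region in any list it was 8. Within 50 kb it was 3 without the first list and 2 without the second. Of the 11 Brg1-bound regions within 50 kb, 10 were inside H3K27ac of both control lists. Over the genome there were 2390 Brg1-bound regions, and 1505 H3K27ac regions of both control lists held at least 1 of them. The share of all Brg1-bound regions or genes with H3K27ac was not computed, so this overlap is not shown to be particular to the members.

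H3K27ac regions of both control lists within 50 kb of the members numbered 42 (the scatter plot of H3K27ac regions). Of these, 14 were lower after 4-OHT without overlap, 13 were higher and 15 overlapped, beside 40.5% lower and 24.3% higher among all 26203 such regions. The 8 that held a Brg1-bound region included 4 lower and 1 higher, beside 69.5% and 7.11% of all 1505 such regions with one. Distal regions, over 2.5 kb from any annotated TSS, numbered 13, and 2 of them were absent from both 4-OHT lists, near *Id1* and *Smad6*, beside 33.9% of all distal control regions. Without the first control list 9 of 21 were absent, and without the second 5 of 22. Of 13 distal regions in both 4-OHT lists, 0 were absent from both control lists, beside 13% of all distal 4-OHT regions, but without the first control list it was 4 of 14. Without the first 4-OHT list it was 7 of 19, and without the second 11 of 30. Summed over 50 kb, H3K27ac was lower without overlap at *Bmp2* and *Bmp7* and higher at *Id2*, beside 20% and 39.7% of all genes. H3K27me3 was lower at *Id2* (15.5% of all genes were lower and 0.164% higher) and Suz12 was higher at *Id2* (5.47% lower and 30.1% higher). In this window the members lower in H3K27ac rose from 2 to 5 without the first control list or the first 4-OHT list. Those higher rose from 1 to 3 without the second control list or without either 4-OHT list. Those lower in H3K27me3 rose from 1 to 3 without the first control list. For Suz12, those higher rose from 1 to 5 without the first 4-OHT list and to 2 without the second control list, and those lower from 0 to 2 without the second 4-OHT list.

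**Figure D4:**
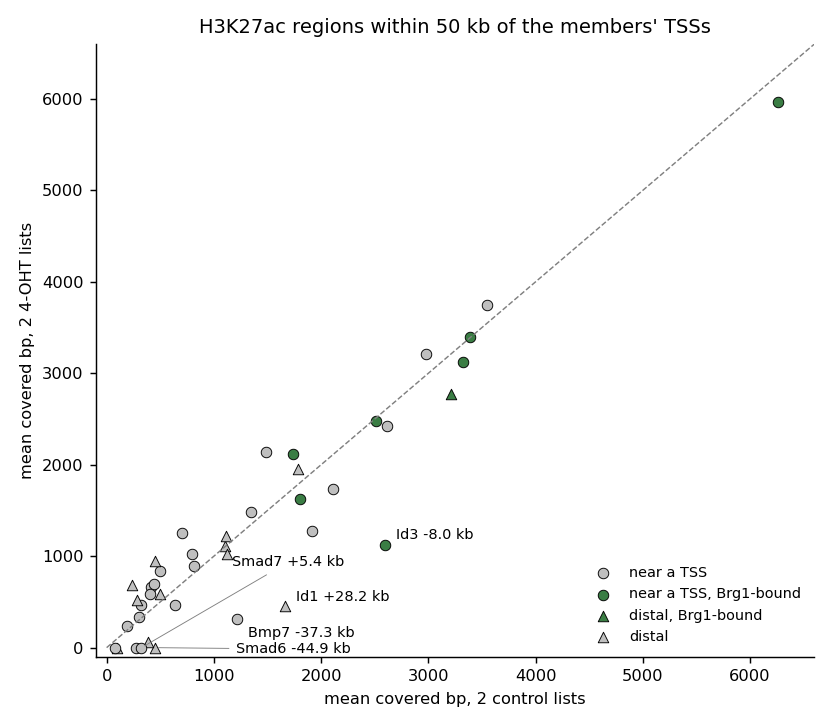
Mean covered bp of each of the 42 H3K27ac regions in both control lists within 50 kb of the members' TSSs, in the control lists (x axis) and the 4-OHT lists (y axis); circles are regions at most 2.5 kb from an annotated TSS, triangles are distal, green holds a Brg1-bound region, and the dashed line marks equal values. Most regions lie near the line, and the labelled ones below it include *Id3* at -8 kb, with 2375 and 2825 bp in control against 1100 and 1150 bp with 4-OHT.

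Genes for the other parts of the pathway were counted from a list of 31: 10 further ligands, 6 receptors, 4 signal-transducing Smads, 9 extracellular antagonists and decoys, and the response genes *Id4* and *Msx1*. For H3K27ac, 8 of the 19 with any region were lower after 4-OHT without overlap and 2 were higher, beside 12.6% and 39.8% of all genes. For H3K27me3, 2 of 15 were lower and 0 higher, beside 12% and 0.19%. For Suz12, 1 of 13 was lower and 3 were higher, beside 5.76% and 32.1%. These counts were not recomputed with lists scaled to their totals or under the other alternatives. Among the members, that scaling took those lower in H3K27ac from 2 to 0. Among the antagonists, 3 were among those lower in H3K27ac. Noggin (*Nog*), which binds and blocks BMP ligands, had 875 and 1500 bp of H3K27ac in control and 25 and 0 bp after 4-OHT. In that window its Suz12 went from 0 bp in both control lists to 1175 and 1675 bp, and its H3K27me3 overlapped, at 375, 950 and 1225 bp against 475, 2200 and 2325 bp. *Nog* and *Id2* thus both had Suz12 in the 4-OHT lists and in neither control list, while H3K27ac was lower at *Nog* and higher at *Id2*. Cerberus (*Cer1*), a secreted inhibitor of Nodal and BMP ligands, was Brg1-bound within 5 kb and had 1300 and 1850 bp of H3K27ac in control and 0 and 325 bp after 4-OHT. *Twsg1*, which modulates BMP binding to chordin, had 700 and 775 bp against 500 and 625 bp.

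The other ligands resembled *Bmp2* and *Bmp4* in control: 6 of 10 (*Bmp3*, *Bmp6*, *Bmp8a*, *Bmp8b*, *Gdf6* and *Gdf7*) had H3K27me3 in all control lists and Suz12 in both, and *Gdf5* alone had H3K27ac in both. *Bmp3* lost part of its H3K27me3, from 3075, 3350 and 2850 bp to 2125, 2150 and 2500 bp. *Bmp8b* had more Suz12, at 525 and 825 bp against 450 and 200 bp, and *Gdf5* less H3K27ac, at 200 and 250 bp against 450 and 375 bp. Of the receptors, 5 of 6 were acetylated in both control lists (all but *Bmpr1b*). *Bmpr1a* was lower, at 2225 and 2300 bp in control against 2100 and 2200 bp with 4-OHT. So was *Acvr2a*, at 1800 and 1750 bp against 1675 bp in both 4-OHT lists. Neither difference was recomputed with lists scaled to their totals. *Acvr2b* was higher, at 1625 and 1350 bp in control against 1725 and 1675 bp with 4-OHT. Among the Smads that carry the signal, *Smad1* covered 3059 and 3734 bp of H3K27ac in control and 2034 and 2834 bp after 4-OHT, and *Smad4*, the common partner, 1600 and 1675 bp against 1375 and 1400 bp. *Smad5* was higher in H3K27ac, at 2050 and 2075 bp in control against 2150 and 2125 bp with 4-OHT, and *Smad9* in Suz12, from 0 bp in both control lists to 175 and 75 bp. Among the Polycomb-marked antagonists, *Bmper* was lower in H3K27me3, at 1875, 1950 and 2175 bp against 875, 1550 and 1775 bp, and *Grem1* lower in Suz12, at 2025 and 2000 bp against 1775 and 1825 bp. *Msx1*, the close relative of *Msx2*, was Brg1-bound within 5 kb and carried all 3 marks in control, with overlapping values after 4-OHT.

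**Figure D5:**
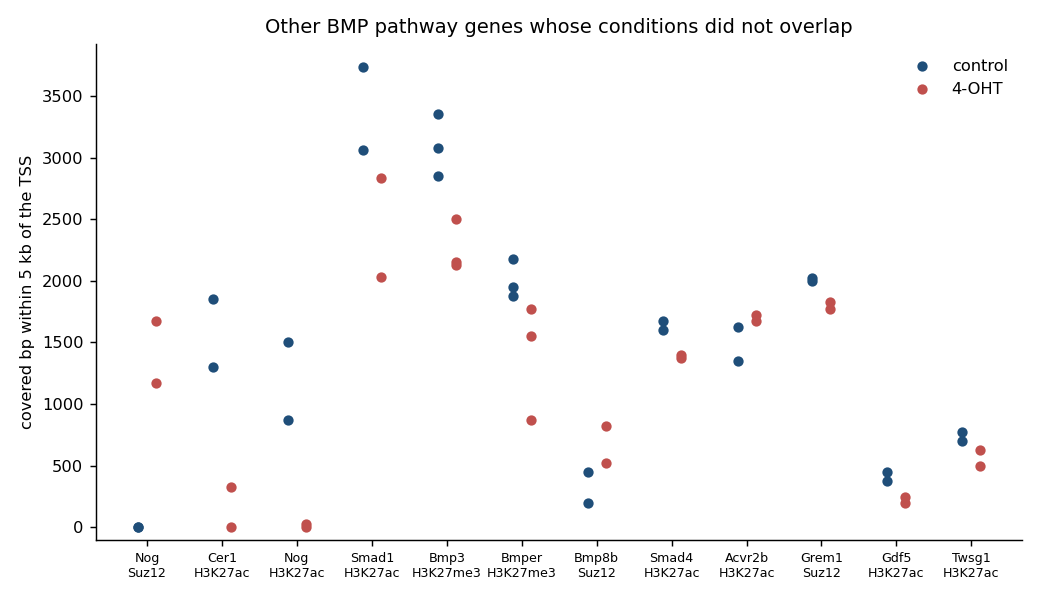
Covered bp within 5 kb of the TSS (y axis) in each list for the 12 gene and mark pairs of the wider pathway list with the largest difference of means among those whose conditions did not overlap, in order of that difference; points are lists, control blue and 4-OHT red. *Nog* appears for Suz12, from 0 bp to 1175 and 1675 bp, and for H3K27ac, from 875 and 1500 bp to 25 and 0 bp.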

How the data were processed

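The authors deposited, for 17 ChIP samples of the 28 in the series (11 are inputs, not used here), lists of enriched regions as start and end positions (mm9), with no score or read count. Per the labels and methods, reads were aligned with Bowtie (version not given in the sources used here), and regions were called in each replicate over input with a Poissonian model at 1e-06 and 2-fold for FLAG and 1e-12 otherwise, so whether a region is listed depends on depth. By the labels, H3K27ac, H3K27me3 and Suz12 had fewer inputs than ChIP samples in each condition. Lists of the same condition may therefore share an input, and the effect on the calls was not tested. Positions are multiples of 25 bp.

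Covered bp were computed in windows of 5 and 50 kb around the TSS of each protein-coding gene of GENCODE vM1 (mitochondrial genes left out) and over gene bodies. Regions sharing at least 1 bp were merged over the lists of a mark, and a merged FLAG region in at least 2 of 3 lists was called Brg1-bound. Conditions were compared by overlap of their lists and by exact two-sided permutation tests over samples, which the labels call biological replicates. Named were all members, their Brg1-bound, condition-specific and widest regions, and the 12 largest pathway differences. The members and lists were chosen with earlier results of these data known. Other named regions, the shared parts of wide Brg1-bound regions and 25 bp at *Id2* were chosen after their values were seen. Sequences were read from NCBIM37 (mm9).

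Deviations of same-numbered control and 4-OHT lists correlated over genes at 0.908, 0.819 and 0.763 for H3K27me3, so these numbers were taken to pair the samples in the replicate block. The permutation tests did not use this pairing. Functions were tested on simulated lists. Python 3.11.15, NumPy 2.4.6 and Matplotlib 3.10.9 were used. Alternatives were other windows, scalings and width filters, numbers of regions, the replicate block and each list left out.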

Additional observations from a re-analysis of the deposited data

How the results depend on the processing

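Of 588 recomputed differences of single members, 65 changed sign, 11 of them on scaling to list totals; 63 of the 65 concern differences whose conditions overlapped. The other 2 were *Id1* H3K27ac within 5 kb, at -344 bp, which became 106 bp scaled to list totals and 0.5 as a number of regions. Members called are given from here on. Within 5 kb, H3K27ac lower (2) became 0 when scaled, 1 by number of regions, 1 within 2.5 kb and 2 to 4 with 1 list left out. H3K27ac higher (2) became 4 when scaled, 0 by number of regions, 1 with all annotated TSSs, 1 with regions centred in the window, and 2 to 4 with 1 list left out. Suz12 higher (1) became 2 when scaled, 2 by number of regions, 0 within 2.5 kb and 1 to 5 with 1 list left out, and Suz12 lower (0) became 0 to 2. H3K27me3 lower (1) became 1 to 2 with 1 list left out. Within 50 kb, H3K27ac lower (2) became 2 to 5 with 1 list left out, and H3K27ac higher (1) became 4 when scaled, 2 with regions at or above the median width of each list, 2 with an equal number of widest regions, and 1 to 3 with 1 list left out. H3K27me3 lower (1) became 1 to 3, H3K27me3 higher (0) became 1 when scaled, Suz12 higher (1) became 2 when scaled and 1 to 5 with 1 list left out, and Suz12 lower (0) became 0 to 2. Without the first H3K27me3 list of both conditions, a setting chosen after seeing the data, H3K27me3 lower was 2 within 5 kb and 3 within 50 kb.

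With the replicate block, which pairs lists of the same number, H3K27me3 lower became 2 within 5 kb and 3 within 50 kb, H3K27ac higher within 50 kb became 2, and Suz12 higher became 2 in both windows (*Bmp2* and *Id2*). The other counts stayed within 1.5 times. With only 2 pairs for H3K27ac and Suz12, their numbers are not shown to pair the samples.

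Members with FLAG regions within 5 kb (4) became 8 with any list and 0 to 4 with 1 list left out, and within 50 kb (5) became 9 and 2 to 5. Distal H3K27ac regions absent after 4-OHT (2) became 4 with 50% overlap required, 12 with regions of either list, 0 at or above the median width, 1 with equal numbers and 2 to 9 with 1 list left out. Those absent from control (0) became 3, 17, 3, 1 and 0 to 11 under the same settings. The cause of these moves was not tested. Depth is unknown, so a region missing from a list is not shown to be without the mark.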

Other observations

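FLAG regions in 1 list only, which enter no comparison above, numbered 40 within 50 kb of the members. Near *Id2* there were 5, of which 4 lay 2.06 to 3.88 kb upstream inside control H3K27ac, with widths of 225, 175, 225 and 325 bp. Near *Smad7* there were 7, including 150 bp in the first list at -0.707 kb and 150 bp in the second at 3.47 kb. Near *Msx2* there were 6, including 125 bp in the second list at 0.455 kb. None of these was repeated in another list.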
